A study of Mus musculus with 16 samples.

Results

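Celiac ganglia of Th-MYCN homozygous mice were compared with the tumors of the same genotype, gene by gene, in 7 of the 16 RNA-Seq libraries of the study. The members are the 3 libraries of ganglia taken at 2 weeks of age (replicates 1, 3 and 4, called MYCN ganglia) and the 4 tumor libraries (replicates 1 to 4), chosen by the genotype and tissue in their labels. Both groups carry the MYCN transgene on both alleles and wild-type Runx1t1. The comparison is therefore one of tissue and stage and not of the transgene or Runx1t1 genotype. Whether the strain background was the same in the ganglia and the tumors was not tested. The transgene drives human MYCN from the tyrosine hydroxylase promoter in cells of the sympathetic lineage. The lineage in which the transgene acts is therefore set by that promoter. The age of the mice with tumors is not given in the sources used here, so age and transformation cannot be told apart. The other 9 libraries are ganglia of the same age, 4 without the transgene and with wild-type Runx1t1, 3 without the transgene and with 1 functional Runx1t1 allele, and 2 with the transgene and 1 functional Runx1t1 allele. The 7 transgene-free ganglia serve below as background levels. Nothing in the labels says which libraries came from separate animals, so p-values measure the spread between these samples.

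The celiac ganglion is a prevertebral ganglion of sympathetic neurons, which make noradrenaline, receive cholinergic input through nicotinic receptors and depend on nerve growth factor for survival. The neurons are wrapped by satellite glia and their axons by Schwann cells, and both derive, like the neurons, from the neural crest. Neuroblastoma arises from immature cells of this lineage, and in the Th-MYCN model clusters of neuroblasts that persist in the ganglia after birth precede the tumors. N-Myc is a transcription factor that dimerizes with Max on E-boxes and is known for driving genes of growth and division.

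Levels below are in CPM, the RSEM expected counts scaled to library size with TMM normalization. Fold changes are on the log2 scale as tumors minus MYCN ganglia, and the first number in brackets after a gene's levels is that value, followed by its standard error (SE) where given. Depth ran from 11240429 counts in ganglion replicate 1 to 38618757 in tumor replicate 4, and ganglion replicates 3 and 4 held 24873952 and 35779888. Rn45s, a ribosomal RNA precursor, took 8.8% of the counts in ganglion replicate 1, 4.61% and 4.92% in replicates 3 and 4 and from 8.57% to 12.8% in the tumors. Tumor replicate 3 stood apart by Alb, the serum albumin gene of liver, at 2512 CPM against 0.646 to 26.5 CPM in the other tumors and 6.05 to 125 CPM in the ganglia. Ddx3y, on the Y chromosome, was above 1 CPM in ganglion replicate 4 and in tumor replicates 1, 2 and 3. Of the lineage markers, the tumors held Hand2 at 490 to 858 CPM and Th at 152 to 495 CPM. Other markers were lower in tumors than in the ganglia. Of 12 catecholamine genes 8 were called lower and 0 higher, and of 19 sympathoadrenal transcription factors 5 lower and 1 higher.

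Tumors and MYCN ganglia differed in 5755 of 16665 genes tested (34.5%), with 2340 genes higher in tumors (14%) and 3415 higher in ganglia (20.5%). The genes higher in ganglia included those of mature sympathetic neurons, of glia and of connective tissue. The genes higher in tumors included those of ribosome assembly, nucleotide synthesis and DNA replication. The sizes were unequal: with a minimum log2 fold change of 1, 1359 genes were higher in ganglia (8.15%) and 92 in tumors (0.552%). In a fit of log2(TPM + 1), the median of all genes moved from −0.01 to −0.29 and 1206 genes were higher in tumors (7.24%) against 4997 in ganglia (30%), so that 19.4% rather than 40.7% of the calls were in the direction of the tumors. The number of calls was 3549 without ganglion replicate 3, the fewest with any of the 7 libraries left out, and 6755 without ganglion replicate 1, the most. Counts of list members under these other rules read against their own share of all genes, higher in tumors first. Those shares were 18.2% and 22.9% by DESeq2 and 20.1% and 25% at an unadjusted p under 0.05. They were 18.9% and 21.7% without ganglion replicate 1, 7.39% and 13.9% without replicate 3 and 7.8% and 16.6% without replicate 4. Without tumor 2 they were 11.2% and 18.3%, without tumor 4 10.7% and 18.1%, and with a term for library depth 17.6% and 20.9%. The groups did not overlap in 18.7% of genes with tumors above and 21% with tumors below.

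**Figure D1:**
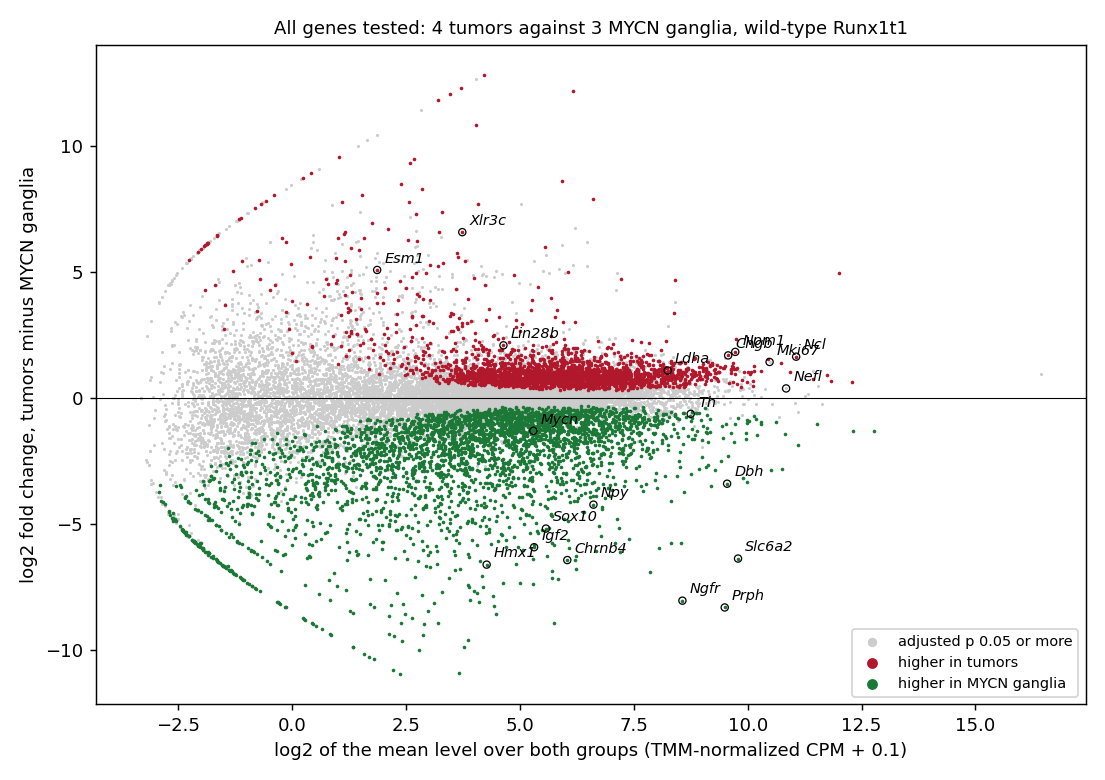
Each point is 1 of the 16665 genes tested, with the log2 of its mean level over both groups (TMM-normalized CPM plus 0.1) on the horizontal axis and its log2 fold change, tumors minus MYCN ganglia, on the vertical axis. Red points are the 2340 genes higher in tumors, green points the 3415 higher in ganglia and grey points the rest. Named ganglion genes such as Ngfr, Prph and Slc6a2 lie far below 0, whereas Ncl and Npm1 lie less than 2 above it. Curved rows of points at the left and outer edges are genes near 0 counts in 1 group, whose fitted values are not measured folds.

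Of the trophic factors and their receptors, 5 of 16 genes tested were higher in ganglia, all of them receptors. Ngfr, the p75 neurotrophin receptor found on sympathetic neurons and glia, was at 383, 1027 and 857 CPM in ganglion replicates 1, 3 and 4 and at 1.94, 4.86, 3 and 1.57 CPM in tumors 1 to 4. Every ganglion exceeded every tumor (−8.05, SE 0.59, adjusted p = 1.62e-06). Ganglion replicate 1 was the lowest of the ganglia and lay below the range of the transgene-free ganglia, which was 515 to 2503 CPM. Ret, the signaling receptor for GDNF family ligands, kept a larger share of its ganglion level, with 237, 367 and 378 CPM in the ganglia against 68.8, 92.2, 17.2 and 12.5 CPM in the tumors (−2.78, adjusted p = 0.00316). Gfra2, the coreceptor for neurturin, was also lower in tumors (−2.23, adjusted p = 0.0093). Of the other members 10 were not called and 1, Gdnf, was higher in tumors, where it did not exceed 0.738 CPM; that call was lost without ganglion replicate 3 or 4 or tumor 1 or 2 (adjusted p up to 0.106). The median log2 fold change of the list was −0.92, beside −0.01 over all genes.

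Most genes of the catecholamine pathway were lower in tumors. Th, the rate-limiting enzyme of the pathway, was at 288, 818 and 467 CPM in the ganglia and 152, 495, 218 and 485 CPM in the tumors, so the groups overlapped (−0.64, SE 0.42, adjusted p = 0.257). Ddc, which makes dopamine, had a value of −0.63 (adjusted p = 0.126) and was called lower in tumors without tumor 1 (adjusted p = 0.00697). Dbh, which turns dopamine into noradrenaline, was at 893, 1835 and 1380 CPM in the ganglia and 290, 86.3, 86.1 and 52.5 CPM in the tumors (−3.41, SE 0.53, adjusted p = 0.000385). Tumor 1 held over 3 times as much Dbh as any other tumor and was still below every ganglion. Slc6a2, the noradrenaline transporter of the cell surface, showed the largest difference of the list, with 881, 2660 and 1702 CPM in the ganglia and 63.2, 7.48, 9.81 and 3.79 CPM in the tumors (−6.38, SE 0.90, adjusted p = 0.00018). Slc18a2, the vesicular monoamine transporter, was 5.65-fold higher in ganglia (adjusted p = 0.000368) and Maoa, which breaks monoamines down, 8.58-fold (adjusted p = 1.22e-05). Of the 12 members tested, 8 were higher in ganglia and 0 in tumors, with a median of −1.83. Beside the 0 stand 0 members higher in tumors at an unadjusted p under 0.05, and 0 by DESeq2.

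Several neuropeptides and enzymes that process them were lower in tumors, and Chgb was higher. Npy, the peptide stored with noradrenaline in sympathetic neurons, was at 170, 230 and 158 CPM in the ganglia and 21, 6.58, 9.03 and 2.72 CPM in the tumors (−4.24, SE 0.55, adjusted p = 9.18e-05). The ganglia themselves were below the 285 to 728 CPM of the transgene-free ganglia. Gal, which encodes galanin, was at 10.1 to 51.7 CPM in the ganglia and 0.141 to 1.28 CPM in the tumors (−5.85, adjusted p = 0.000154). Pcsk1, a convertase that cleaves prohormones, was at 16.2, 33.9 and 31.5 CPM in the ganglia and at no more than 3 counts in any tumor, which makes it at least 277-fold higher in ganglia (adjusted p = 2.49e-07). Sst, which encodes somatostatin, was at 3.49, 5.19 and 22 CPM in the ganglia and at least 104-fold higher there by the same floor (adjusted p = 2.41e-05), or at least 44.2-fold without ganglion replicate 4. Scg2, a granin, was 6.92-fold higher in ganglia (adjusted p = 0.003). Chgb, another granin of dense-core granules, was at 251, 409 and 428 CPM in the ganglia and 419, 1683, 1649 and 885 CPM in the tumors (1.68, SE 0.47, adjusted p = 0.0146). Tumor 1 lay within the ganglion range for Chgb. In all, 10 of 18 members of the list of peptides and dense-core granule genes were higher in ganglia, 1 was higher in tumors and 7 were not called. In the fit of log2(TPM + 1) these numbers were 15 and 0.

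The subunits of the ganglionic nicotinic receptor separated the groups without overlap. Chrna3, its main alpha subunit, was at 191, 376 and 299 CPM in the ganglia and 56.9, 16.2, 20.1 and 23.7 CPM in the tumors (−3.31, SE 0.47, adjusted p = 0.000195). Chrnb4, its partner, was at 63.4, 203 and 125 CPM in the ganglia and 3.03, 1.75, 0.856 and 0.449 CPM in the tumors (−6.44, SE 0.65, adjusted p = 1.3e-05). Chrna5, an accessory subunit, was 14.9-fold higher in ganglia (adjusted p = 0.000549). These 3 genes lie next to each other on chromosome 9 of GRCm38, from chr9:54980827 to chr9:55048953, with Chrna5 and Chrna3 overlapping at their ends, where the counting may not separate them. They were the 3 of 7 tested nicotinic subunit genes that were called.

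In the list of channel subunits, 23 of 38 members were higher in ganglia and 1 in tumors, with a median of −1.38. Kcnc4, a voltage-gated potassium channel subunit of fast repolarization, was at 36.5, 94.3 and 68.2 CPM in the ganglia and 0.505 to 1.66 CPM in the tumors (−6.06, adjusted p = 2.24e-06). Kcna2, a delayed rectifier subunit, was 11.2-fold higher in ganglia (adjusted p = 5.39e-05). Scn9a, the sodium channel Nav1.7 of peripheral neurons, was at 299 to 349 CPM in the ganglia and 62.5 to 131 CPM in the tumors (−1.68, adjusted p = 0.00087). Without ganglion replicate 1 they were 20 and 5. The exception was Cacna1d, an L-type calcium channel subunit, at 68.6, 22.9 and 34.4 CPM in the ganglia and 91.9, 90.4, 101 and 107 CPM in the tumors (1.22, SE 0.27, adjusted p = 0.00362).

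Genes of synaptic release were lower in tumors by 16 of 26 members and higher by 0, with a median of −1.02. At an unadjusted p under 0.05, 19 were higher in ganglia and 0 in tumors, and DESeq2 called 19 and 0. Without ganglion replicate 3, 11 members were called. Cplx2, a complexin that clamps and promotes vesicle fusion, was at 670, 1599 and 981 CPM in the ganglia and 81.3 to 115 CPM in the tumors (−3.52, adjusted p = 1.54e-05). Syt1, the calcium sensor of release, was 8.06-fold higher in ganglia (adjusted p = 9.91e-05), and Syn2, a vesicle phosphoprotein, 9.67-fold (adjusted p = 1.54e-05).

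The intermediate filaments of the axon divided. Prph, which encodes peripherin, the filament protein typical of peripheral neurons, was at 852, 1966 and 1500 CPM in the ganglia and 9.78, 5.2, 2.28 and 0.842 CPM in the tumors (−8.32, SE 0.73, adjusted p = 4.51e-06). The 3 neurofilament genes were not called: Nefl had a log2 fold change of 0.37 (adjusted p = 0.556), Nefm of 1.05 (adjusted p = 0.148) and Nefh of 0.30 (adjusted p = 0.423). Nefm was at 3028, 789 and 1590 CPM in the ganglia and 8261, 1669, 2861 and 2176 CPM in the tumors, so tumor 1 was the highest library. It was called higher in tumors without ganglion replicate 1 (1.65, adjusted p = 0.0435). The fitted values for Nefl and Nefh turned negative in the fit of log2(TPM + 1), to −0.15 and −0.09. Stmn2, a regulator of microtubules in growing axons, was 3.12-fold higher in ganglia (adjusted p = 0.00702), Gap43, a growth cone protein, 3.56-fold (adjusted p = 0.000909) and Mapt, which encodes tau, 5.13-fold (adjusted p = 0.000874). Of 25 members of the cytoskeleton list, 14 were higher in ganglia and 0 in tumors; 0 were higher in tumors at an unadjusted p under 0.05 and 0 by DESeq2, and 1 was without ganglion replicate 1.

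**Figure D2:**
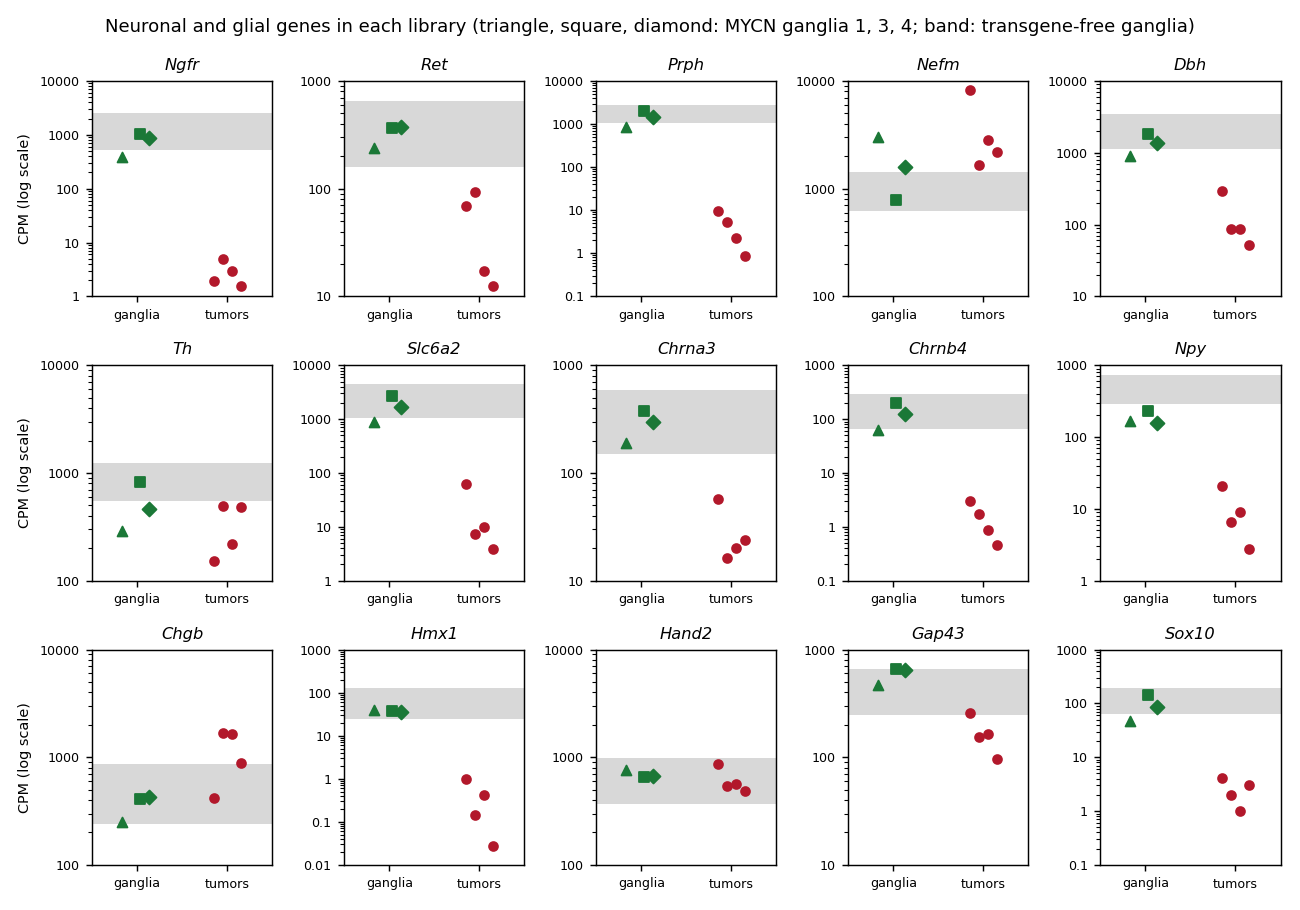
Each panel gives the level of 1 gene (CPM, log scale) in ganglion replicates 1, 3 and 4 (green triangle, square and diamond) and in tumors 1 to 4 (red points, left to right), with the range of the 7 transgene-free ganglia as a grey band. Ngfr, Prph and Chrnb4 are at under 10 CPM in every tumor and at over 60 CPM in every ganglion, whereas Th, Nefm and Hand2 overlap between the groups.

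Transcription factors of sympathetic identity were called about as often as all genes tested, 6 of 19 against 34.5%. Hand2 was at 753, 656 and 671 CPM in the ganglia and 858, 539, 560 and 490 CPM in the tumors (−0.18, SE 0.27, adjusted p = 0.641). Gata3, a factor of noradrenergic differentiation, had a value of 0.40 (SE 0.20, adjusted p = 0.131), which turned to −0.01 in the fit of log2(TPM + 1). By contrast, Hand1, a relative of Hand2, was at 130, 198 and 154 CPM in the ganglia and 19.1, 2.17, 6.21 and 0.14 CPM in the tumors (−4.55, SE 0.90, adjusted p = 0.0018). Hmx1, a homeobox factor of noradrenergic neurons, was at 40.1, 38.4 and 35.6 CPM in the ganglia and 1.01, 0.141, 0.428 and 0.0281 CPM in the tumors (−6.62, SE 0.80, adjusted p = 5.3e-05). The 4 tumors were spread widely for both genes, with tumor 1 the highest. Tfap2b, an AP-2 factor of neural crest derivatives, was the 1 factor of 19 called higher in tumors (0.87, adjusted p = 0.0461), a call lost without any 1 of the libraries other than ganglion replicate 1 (adjusted p up to 0.196). In all 5 of the 19 factors were called higher in ganglia, a share near the 20.5% of all genes, and 4 with any 1 of the 7 libraries left out.

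Glial genes showed the largest difference of any list. All but 3 of its 22 members were called and all 19 were higher in ganglia, with a median log2 fold change of −4.46. Sox10, the factor that specifies the glial lineage, was at 46.1, 146 and 85.2 CPM in the ganglia and 4.15, 1.95, 0.999 and 3.06 CPM in the tumors (−5.19, SE 0.52, adjusted p = 1.27e-05). Fabp7, a fatty acid binding protein of satellite glia and Schwann cell precursors, was 110-fold higher in ganglia (adjusted p = 3.24e-06). Gjc3, a glial connexin, was at 10.3 to 86.2 CPM and at 0.0357 to 0.254 CPM (−8.25, adjusted p = 9.59e-06). Summed over the list, glial RNA was at 994 TPM in ganglion replicate 1, 4055 in replicate 3 and 2667 in replicate 4, at 101 to 162 TPM in the tumors and at 1319 to 3931 TPM in the transgene-free ganglia. No glial marker was at 0 in all 4 tumors. In these bulk samples, fewer glial cells and less RNA of these genes per cell cannot be told apart, and the same holds for every list below and above. Ngfr is found in glia as well as neurons, and the part that glia have in its difference was not tested.

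Genes of fibroblasts and the extracellular matrix were lower in tumors for 19 of 26 members and higher for 0, with a median of −2.22. At an unadjusted p under 0.05 they were 21 and 0, and by DESeq2 20 and 0. Col3a1, a fibrillar collagen, was at 904, 3928 and 2860 CPM in the ganglia and 276, 286, 209 and 636 CPM in the tumors (−2.87, SE 0.58, adjusted p = 0.00208). Col1a1 was 5.74-fold higher in ganglia (adjusted p = 0.00407) and Pdgfra, a receptor of fibroblasts, 8.51-fold (adjusted p = 0.00417). Lama2, a laminin chain of the basement membrane of Schwann cells and muscle, differed more, with 121, 453 and 295 CPM in the ganglia and 2.71 to 4.89 CPM in the tumors (−6.12, SE 0.45, adjusted p = 1.62e-06). The summed level of the list was 1927 to 6983 TPM in the ganglia, again lowest in replicate 1, and 636 to 1219 TPM in the tumors.

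Few genes of blood vessels and immune cells were called. Of 18 endothelial genes 2 were higher in ganglia and 1 in tumors, and Pecam1, which marks endothelium, overlapped between groups (−0.61, adjusted p = 0.519). Without ganglion replicate 3, 0 were higher in ganglia and the median of the list moved from −0.42 to 0.12. The gene higher in tumors was Esm1, a proteoglycan of sprouting endothelium, at 0.183, 0.153 and 0.258 CPM in the ganglia and 3.53, 9.49, 5.32 and 9.27 CPM in the tumors (5.07, SE 0.83, adjusted p = 0.000533). Cspg4, a pericyte proteoglycan that glial precursors also make, was the 1 of 9 mural genes called, 5.43-fold higher in ganglia (adjusted p = 0.00153). The median of the mural list had the other sign, at 0.74, but was 0.14 without tumor 4 and 0.16 in the fit of log2(TPM + 1). Of the 8 members not called, 6 had higher fitted values in tumors. Among them the contractile genes Acta2 (2.13, adjusted p = 0.0746) and Cnn1 (3.35, adjusted p = 0.0909) overlapped between groups, and DESeq2 called these 2 higher in tumors. Of 14 macrophage genes 1, Cx3cr1, was called, higher in ganglia (−1.43, adjusted p = 0.0401, up to 0.11 with 1 library left out), whereas Csf1r was at 17.6 to 29.9 CPM in the ganglia and 25.4 to 72.4 CPM in the tumors (0.71, adjusted p = 0.457). The median of the macrophage list was 0.95, or 0.21 with a term for sex. Of the 13 members not called, 10 had higher fitted values in tumors. Called higher in tumors were 1 member by DESeq2, 2 with the 7 libraries alone and 3 with a term for library depth. The shares of all genes higher in tumors under these rules were 18.2%, 11.4% and 17.6%. None of 13 lymphocyte genes was called by edgeR, and 0 passed at an unadjusted p under 0.05. Fat and muscle genes were uneven among the ganglia: Ucp1, of brown fat, was at 9.08, 270 and 16.7 CPM, and its call (−4.63, adjusted p = 0.00535) was lost without ganglion replicate 3 (−1.70, adjusted p = 0.136). Of 9 skeletal muscle genes 6 were higher in ganglia, with a median of −3.53, and 2 were without ganglion replicate 3. Myh1, of skeletal muscle, was at 7.89 to 56.9 CPM in the ganglia and 0.544 to 2.72 CPM in the tumors (−4.29, adjusted p = 0.00268).

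**Figure D3:**
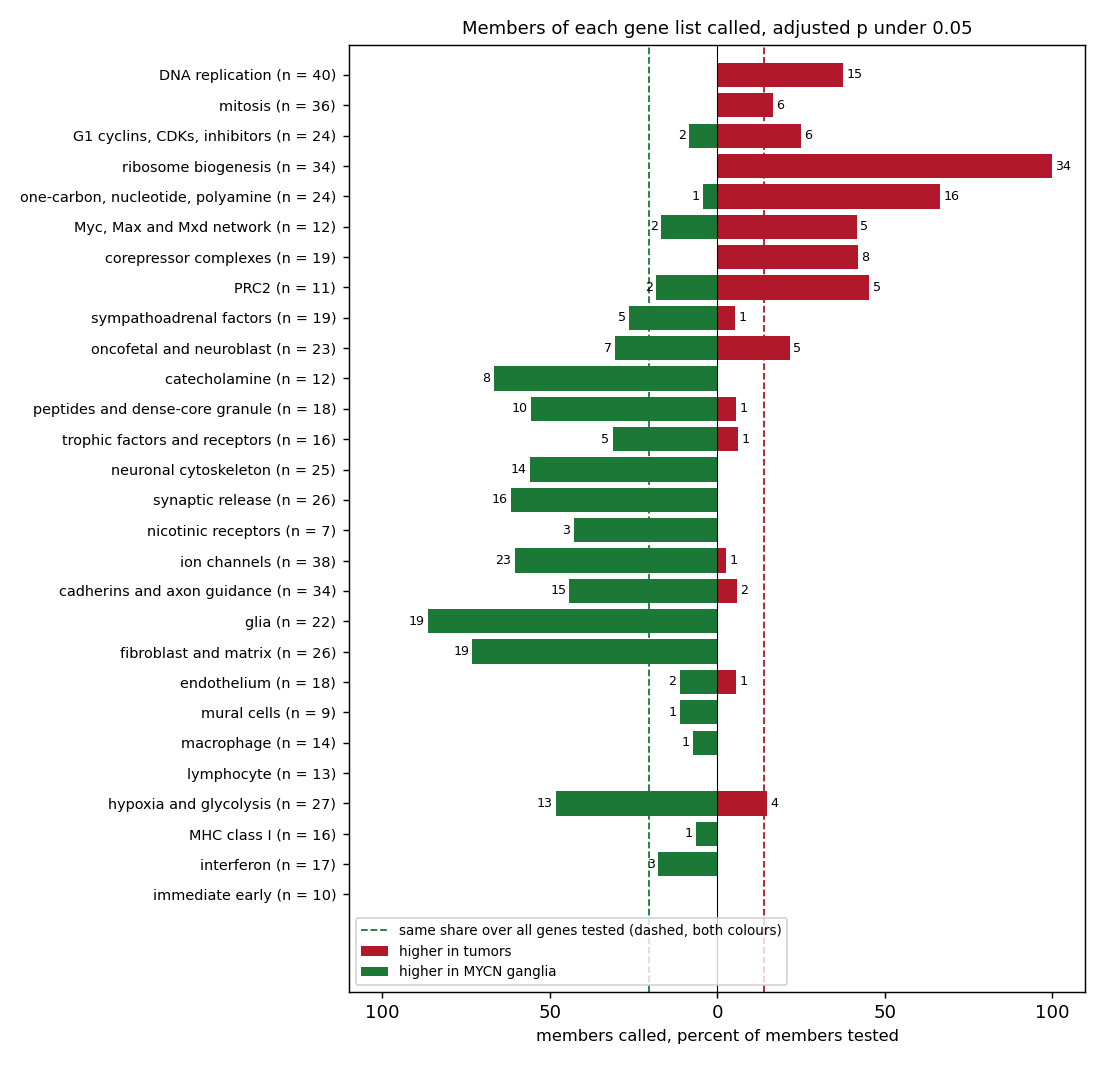
Bars give, for each gene list, the share of its members tested that were called higher in tumors (red, to the right) or higher in MYCN ganglia (green, to the left), as a percent of the number in brackets; the figure beside each bar is the count. Dashed lines are the same shares over all genes tested, 14% and 20.5%. Ribosome biogenesis reaches 34 of 34 members to the right, and glia reach 19 of 22 to the left.

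Every gene of the ribosome biogenesis list was higher in tumors. All 34 members, which process ribosomal RNA or assemble its subunits in the nucleolus, were called, with a median log2 fold change of 1.42, and in each the 4 tumors lay above the 3 ganglia. The number was 32 to 34 with 1 library left out and 29 in the fit of log2(TPM + 1); with a minimum log2 fold change of 1 it was 5. Ncl, which encodes nucleolin, was at 1493, 659 and 988 CPM in the ganglia and 2493, 3702, 3376 and 3372 CPM in the tumors (1.63, SE 0.28, adjusted p = 0.000672). Npm1, which encodes nucleophosmin, was at 566, 205 and 356 CPM in the ganglia and 922, 1495, 1368 and 1499 CPM in the tumors (1.82, SE 0.36, adjusted p = 0.00177). Fbl, the methyltransferase fibrillarin, was 3.19-fold higher in tumors (adjusted p = 0.00593) and Mybbp1a, a nucleolar protein bound by Myb, 3.69-fold (adjusted p = 0.001). In each of these genes ganglion replicate 1 was the highest of the ganglia and tumor 1 the lowest of the tumors.

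The E-box CACGTG, the letters that Myc and Max bind, was looked for on both strands in RefSeq promoters of GRCm38.p6, from 250 bases before to 50 bases after the start. It was found in 24.1% of the 29 promoters that matched a member of the ribosome biogenesis list, in 13.8% of the 1887 matched to genes higher in tumors and in 7.24% of all 27025 promoters in the table. These sets differ in base composition, with a median GC content of 60.7%, 61% and 52.7%. Among the promoters that matched any gene tested the share was 9.64%, and among those of genes higher in ganglia 8.4%, at a median GC content of 60% and 61.3%. A promoter was matched for 78.1% and 76.7% of these genes, so neither share stands for its whole set. The stretches below, from 3 list members, are shown because each holds an E-box, in capitals, with 10 bases on each side.
Pes1 (chr11:3963967-3963992, plus strand): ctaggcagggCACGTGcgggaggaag
Nop2 (chr6:125131813-125131838, plus strand): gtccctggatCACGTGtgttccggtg
Tsr1 (chr11:74898094-74898119, plus strand): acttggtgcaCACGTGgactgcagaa
The first base of the motif lies at position 3 from the start site in Pes1, at −60 in Nop2 and at 25 in Tsr1. Pes1, of the complex that matures the large subunit, was at 61.3, 40 and 45.2 CPM in the ganglia and 98.1 to 117 CPM in the tumors (1.16, adjusted p = 0.000262). Nop2, a ribosomal RNA methyltransferase, had a log2 fold change of 1.42 (adjusted p = 0.000276), and Tsr1, of the small subunit, of 0.99 (adjusted p = 0.00434). A match describes the letters and is no evidence of binding.

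Genes of nucleotide, one-carbon and polyamine synthesis were higher in tumors for 16 of 24 members. Cad, which carries out the first steps of pyrimidine synthesis, was at 159, 61.8 and 84.5 CPM in the ganglia and 191, 424, 383 and 369 CPM in the tumors (1.75, SE 0.34, adjusted p = 0.00175). Shmt2, the mitochondrial serine hydroxymethyltransferase, was at 27.1 to 30.6 CPM in the ganglia and 29, 181, 132 and 116 CPM in the tumors (1.99, adjusted p = 0.00501). Tumor 1 was at the ganglion level for Shmt2. Odc1, the first enzyme of polyamine synthesis, was not called (0.96, adjusted p = 0.0548), but was called higher in tumors without ganglion replicate 1 (adjusted p = 0.00387) or without tumor 1 (adjusted p = 0.0394). Phgdh, which opens serine synthesis, was the 1 member higher in ganglia, at 17.9, 56.1 and 42.2 CPM against 9.12, 8.81, 7.71 and 3.48 CPM in the tumors (−2.41, SE 0.36, adjusted p = 0.000249).

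Cell division genes were higher in tumors in the fit for every member of 2 lists, but most were not called and the ganglia differed widely from each other. In the replication list 15 of 40 members were called higher in tumors and 0 in ganglia (median 1.51), and in the mitosis list 6 of 36 and 0 (median 1.66), a share near the 14% of all genes tested. At an unadjusted p under 0.05 the counts were 28 and 0 for replication and 19 and 0 for mitosis, and by DESeq2 28 and 0 and 20 and 0. Mki67, the Ki-67 antigen of cycling cells, was at 1649, 77.9 and 611 CPM in ganglion replicates 1, 3 and 4 and at 1889, 2435, 2063 and 1931 CPM in the tumors. The ganglia spanned a range from near the tumors to within the 28.5 to 368 CPM of the transgene-free ganglia, and the difference was 1.42 (SE 0.92, adjusted p = 0.251). Top2a, a topoisomerase of chromosome condensation, was at 601, 40.1 and 263 CPM in the ganglia and 723 to 969 CPM in the tumors (1.49, adjusted p = 0.175). Cdk1, the mitotic kinase, was at 57, 3.63 and 29.4 CPM and at 79.1 to 104 CPM (1.65, adjusted p = 0.101, or 0.0324 without ganglion replicate 1). Mcm5, of the replicative helicase, was at 141, 10.8 and 60 CPM and at 177 to 275 CPM (1.68, adjusted p = 0.145, or 0.049 without ganglion replicate 1).

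The counts depended on which ganglia were compared. Without replicate 1 35 replication and 30 mitosis members were called, without ganglion replicate 3 the numbers were 5 and 1 and without replicate 4 they were 4 and 1. The medians moved too: without replicate 1 they were 2.22 for replication and 2.68 for mitosis, and without replicate 3 1.04 and 1.13. In 34 of the 36 mitosis genes and 35 of the 40 replication genes the tumors did not overlap the ganglia, beside 18.7% of all genes tested. Among the genes called, Pcna, the sliding clamp of DNA polymerases, was at 89.4, 20.3 and 60.3 CPM in the ganglia and 138 to 176 CPM in the tumors (1.47, adjusted p = 0.0156). Pold2, a subunit of DNA polymerase delta, was at 31, 13.3 and 22.3 CPM in the ganglia and 42.9, 89.6, 88.4 and 108 CPM in the tumors (1.89, SE 0.31, adjusted p = 0.000533). Bub1b, of the spindle checkpoint, was at 118, 11.4 and 49.5 CPM in the ganglia and 208 to 368 CPM in the tumors (2.31, adjusted p = 0.0317); with 1 of ganglion replicates 3 and 4 or tumors 2 and 4 left out it was not called (adjusted p up to 0.105). Cdk4, the G1 kinase, was 2.71-fold higher in tumors (adjusted p = 0.0149, up to 0.0594 without ganglion replicate 3 or 4), whereas its relative Cdk6 was 6.46-fold higher in ganglia (adjusted p = 3.15e-05). Cdkn1a, the inhibitor p21, was at 17.4, 38.1 and 25.9 CPM in the ganglia and 7.85 to 13.7 CPM in the tumors (−1.48, adjusted p = 0.00302).

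Promoters of the division genes were read for 2 motifs in the same windows and on both strands: TTCCCGC, the core of the E2F site, and TTTGAA, the cell cycle homology region bound by complexes that repress mitotic genes in resting cells. The E2F core was found in 37.5% of the 32 matched replication promoters in 4.67% of all promoters in the table and in 7.88% of those matched to a gene tested, with a median GC content of 57.5%, 52.7% and 60%. For mitosis 28 of 36 members had a promoter, too few for a share to stand for the list, and 20 of those 28 held TTTGAA, which was in 18.2% of all promoters in the table and in 12.6% of those matched to a gene tested. The stretches below are from genes named here or of the same lists, with the motif, on either strand, in capitals.
Rrm1 (chr7:102441618-102441644, plus strand): ggagaactcgTTCCCGCcaggtccgct
Prim1 (chr10:128015190-128015216, plus strand): gcctgtcttgTTCCCGCcaattctcgt
Cdk1 (chr10:69352912-69352937, minus strand): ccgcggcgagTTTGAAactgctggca
Aurka (chr2:172370523-172370548, minus strand): aaggagaaccTTTGAAttgtaacggc
Mki67 (chr7:135716462-135716487, minus strand): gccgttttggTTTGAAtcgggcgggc
Aurka, a kinase of the mitotic spindle, was at 32.7, 3.82 and 14.6 CPM in the ganglia and 58.2 to 63.9 CPM in the tumors (1.84, adjusted p = 0.0313, up to 0.104 with 1 library left out). Rrm1, a subunit of ribonucleotide reductase, was at 187, 25 and 102 CPM and at 220 to 275 CPM (adjusted p = 0.0642, or 0.00846 without ganglion replicate 1). Prim1, the primase, was at 44.7, 4.85 and 20.5 CPM and at 57.2 to 76.5 CPM (adjusted p = 0.057, or 0.00782 without ganglion replicate 1).

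Among genes in which 1 ganglion alone lay in the tumor range, that ganglion was most often replicate 1. Of 12227 genes with a mean of at least 5 TPM in the higher group, 1253 had replicate 1 alone within the tumor range and both other ganglia below every tumor, against 188 for replicate 3 and 85 for replicate 4. In the turned direction the numbers were 773, 179 and 156. Gad2, a glutamate decarboxylase, was at 95.4, 2.98 and 10.3 CPM in ganglion replicates 1, 3 and 4, at 31.6 to 118 CPM in the tumors and at 1.02 to 2.32 CPM in the transgene-free ganglia. Neurod1, a proneural factor, was at 33.1, 0.496 and 1.83 CPM in the ganglia, at 4.77 to 35.1 CPM in the tumors and at no more than 0.0801 CPM in the transgene-free ganglia. The histone genes Hist1h2ag and Hist1h2ab, made in S phase and close in sequence to other histone genes so that their counts are uncertain, were at 132, 1.34 and 24.7 CPM and at 245, 2.14 and 48.3 CPM. In the turned direction, Hoxc10, a posterior homeobox gene, was at 0.183, 19.3 and 10.8 CPM in the ganglia, at 0.0281 to 0.678 CPM in the tumors and at 1.13 to 8.04 CPM in the transgene-free ganglia. These genes were chosen by this pattern, so their values describe it and test nothing.

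The same replicate stood apart in other measures. It had the fewest counts of the 3 ganglia, the highest share of Rn45s and the lowest summed levels of glial and fibroblast genes, and their part in the division and ribosome values was not tested beyond the alternatives named. With a term for library depth in the fit, split at 20000000 counts, 33 replication and 27 mitosis members were higher in tumors. Of the 7 libraries compared, ganglion replicate 1 alone lay below that split. The term therefore sets this library apart and cannot tell depth from its other traits. On the mean over the list of log2(CPM + 1), mitosis genes were at 6.46, 3.03 and 5.26 in ganglion replicates 1, 3 and 4, at 6.98 to 7.30 in the tumors and at 1.93 to 4.14 in the transgene-free ganglia. Glial genes were at 3.98, 5.86 and 4.92 in the ganglia, at 1.64 to 2.08 in the tumors and at 4.50 to 5.88 in the transgene-free ganglia. For ion channels the 3 ganglia were alike, at 5.41, 5.31 and 5.40, above the 3.77 to 4.36 of the tumors. Other lists went another way. Sympathetic transcription factors were at 7.33 in replicate 1, above the 5.89 to 6.61 of the tumors, and at 5.94 and 6.71 in replicates 3 and 4. Erythroid genes were at 1.58 in replicate 1, below the 4.14 to 5.76 of the tumors, and at 5.24 and 4.63 in replicates 3 and 4. Endothelial genes were at 2.89 in replicate 1, below the 3.17 to 4.12 of the tumors. Of the 2340 genes called higher in tumors, replicate 1 reached the lowest tumor in 202, replicate 3 in 68 and replicate 4 in 70. On TPM in place of CPM these numbers were 959, 350 and 602. Of the 3415 genes called higher in ganglia, replicate 1 reached the highest tumor in 415, replicate 3 in 41 and replicate 4 in 35, and on TPM in 218, 15 and 7. The order differed among the 92 genes called with a minimum log2 fold change of 1, where the shares were 5.43%, 6.52% and 7.61%, and without tumor 1 the shares of the 2340 were 3.63%, 0.983% and 0.94%.

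**Figure D4:**
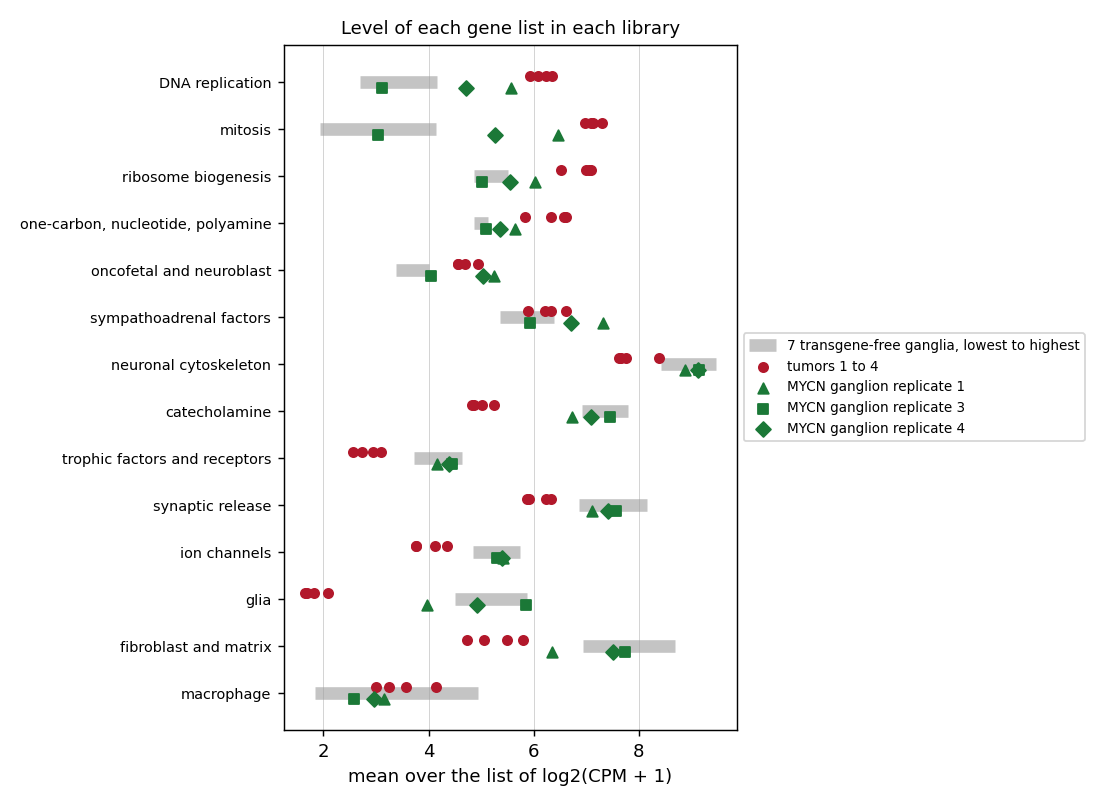
The mean over each list of log2(CPM + 1) is plotted for ganglion replicates 1, 3 and 4 (green triangle, square and diamond), the 4 tumors (red points) and the range of the 7 transgene-free ganglia (grey bar). For mitosis the ganglia run from 3.03 to 6.46, below all tumors, whereas for ion channels they sit together from 5.31 to 5.41, above all tumors.

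**Figure D5:**
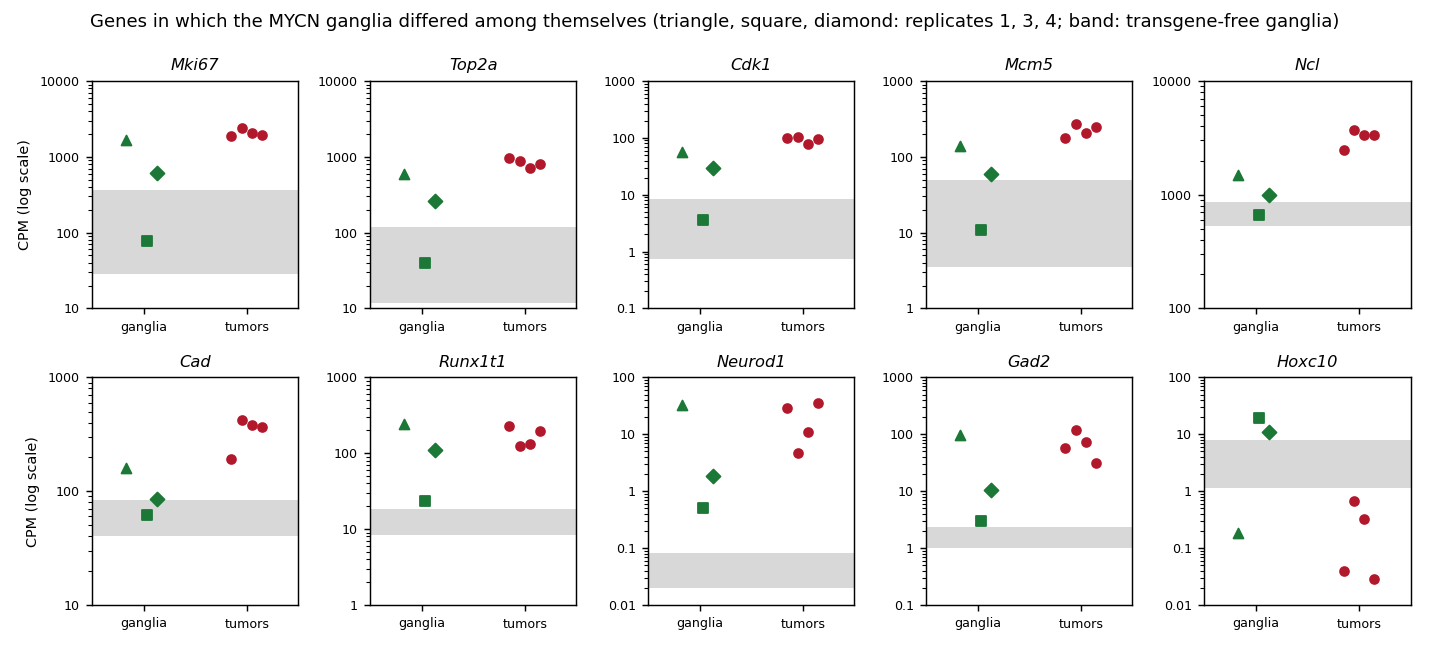
Each panel gives the level of 1 gene (CPM, log scale) in ganglion replicates 1, 3 and 4 (green triangle, square and diamond) and tumors 1 to 4 (red points, left to right), with the range of the 7 transgene-free ganglia in grey and values under 0.02 drawn at 0.02. In Mki67, Neurod1 and Gad2 replicate 1 is the ganglion closest to the tumors and replicate 3 the farthest, and in Hoxc10 replicate 1 lies among the tumors, below both other ganglia.

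In the network of Myc and its partners, Mycn and Myc were lower in tumors and 5 of 12 genes were higher. The row for Mycn is that of the mouse gene and the human transgene has no row; whether reads of the transgene were counted to Mycn was not tested. It was at 54.6, 57.3 and 55.6 CPM in the ganglia and 49.7, 12.4, 15.7 and 12.7 CPM in the tumors (−1.31, SE 0.43, adjusted p = 0.0309), so tumor 1 was close to the ganglia and the others were well below. The call was lost without ganglion replicate 3 or 4 or tumor 2, 3 or 4 (adjusted p up to 0.0805), and without tumor 1 the value was −2.04. Myc was at 13.6, 22.4 and 14.6 CPM in the ganglia and 4.78, 4.74, 2.46 and 2.25 CPM in the tumors (−2.25, SE 0.41, adjusted p = 0.00111). Max, the shared partner, was at 53.7, 42 and 46 CPM in the ganglia and 64.5 to 69.5 CPM in the tumors (0.51, SE 0.13, adjusted p = 0.00738). On TPM the difference in Max was smaller, with means of 61 in the ganglia and 66.6 in the tumors. Mxd3, an antagonist that competes for Max, was 3.75-fold higher in tumors (adjusted p = 0.0365, up to 0.123 with 1 library left out). The 2 of the 12 members called higher in ganglia were Mycn and Myc. In the fit of log2(TPM + 1) the balance turned, with 1 higher in tumors and 3 in ganglia. With 1 library left out the number higher in tumors fell to 1 without ganglion replicate 3 or 4, 3 without tumor 2 and 2 without tumor 4.

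Runx1t1, the corepressor of the ETO family that the study concerns, was at 243, 23.4 and 111 CPM in the ganglia and 227, 123, 131 and 198 CPM in the tumors, and its groups overlapped (0.43, SE 0.52, adjusted p = 0.546). It was called higher in tumors without ganglion replicate 1 (1.34, adjusted p = 0.0492), whereas without replicate 3 the fitted value was −0.06. Of 19 corepressor genes, 8 were higher in tumors and 0 in ganglia, with a median of 0.44. At an unadjusted p under 0.05 they were 9 and 1, by DESeq2 also 9 and 1, and 4 were higher in tumors without ganglion replicate 3 and 3 without replicate 4. Hdac1, a histone deacetylase shared by several complexes, was at 46, 34.4 and 38.9 CPM in the ganglia and 83 to 106 CPM in the tumors (1.23, SE 0.30, adjusted p = 0.00613). Rcor2, a CoREST protein that joins deacetylases to the demethylase LSD1, was at 65.7, 9.73 and 33.3 CPM and at 85.1 to 157 CPM (1.90, adjusted p = 0.015, 0.0581 without ganglion replicate 4). In the polycomb complex PRC2, the alternative catalytic subunits differed in opposite directions: Ezh2 was at 112, 20.5 and 59.9 CPM in the ganglia and 150 to 184 CPM in the tumors (1.40, adjusted p = 0.0402, up to 0.13 with 1 library left out), and Ezh1 at 25.8, 54.7 and 42.5 CPM and at 8.42 to 17.9 CPM (−1.79, SE 0.26, adjusted p = 0.000243). Rbbp4, a histone chaperone of PRC2 and other complexes, was 2-fold higher in tumors (adjusted p = 0.000553).

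Oncofetal and neuroblast genes did not share a direction, with 5 of 23 higher in tumors and 7 in ganglia, and 2 and 4 without ganglion replicate 4. Lin28b, which blocks maturation of the let-7 microRNAs, was at 16.9, 2.94 and 8.83 CPM in the ganglia and 25.1, 44.1, 46.1 and 44.9 CPM in the tumors (2.08, SE 0.52, adjusted p = 0.00716). Igf2bp1, a let-7 target that binds and stabilizes mRNA, was at 2.66, 1.91 and 23 CPM in the ganglia and at no more than 3 counts in each tumor, at least 93.5-fold higher in ganglia (adjusted p = 0.000311). Without ganglion replicate 4 the bound was 23.3-fold. Igf2, an imprinted growth factor, was at 17.1, 143 and 74.1 CPM in the ganglia and 1.07 to 1.69 CPM in the tumors (−5.93, SE 0.72, adjusted p = 5.33e-05). Alk, the receptor kinase altered in some neuroblastomas, overlapped between the groups (0.64, adjusted p = 0.502), with 180, 29.6 and 82.1 CPM in the ganglia, 93.5 to 259 CPM in the tumors and 3.21 to 22.1 CPM in the transgene-free ganglia. Dlx5, a homeobox factor, was at 0.0382 to 1.39 CPM in the ganglia and 0.582, 19.5, 8.92 and 22.5 CPM in the tumors (4.03, adjusted p = 0.0457); tumor 1 was at the ganglion level, and the call was lost without any 1 library other than tumor 1 (adjusted p up to 0.13).

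Adhesion and guidance genes were lower in tumors for 15 of 34 members and higher for 2. Cdh8, a type II cadherin, was at 8.62, 29.3 and 25.9 CPM in the ganglia and 0 to 0.449 CPM in the tumors (−7.14, adjusted p = 2.22e-05). Nrp1, the coreceptor for class 3 semaphorins, was 3.45-fold higher in ganglia (adjusted p = 0.000573). Robo1, a receptor for Slit ligands, was at 12.6 to 13.8 CPM in the ganglia and 24.1, 53.1, 57.3 and 60.4 CPM in the tumors (1.89, SE 0.44, adjusted p = 0.00471).

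Glycolytic and hypoxia genes went both ways, with 13 of 27 higher in ganglia and 4 in tumors, and 7 and 5 without ganglion replicate 3. Ldha, the lactate dehydrogenase subunit that favors lactate, was at 174, 211 and 199 CPM in the ganglia and 327, 348, 416 and 556 CPM in the tumors (1.08, SE 0.22, adjusted p = 0.00235). Aldoc, the aldolase of neurons and glia, was at 24.9, 94.4 and 78.5 CPM in the ganglia and 0.73 to 4.7 CPM in the tumors (−5.00, adjusted p = 8.37e-05). Egln3, an oxygen sensor whose RNA rises in hypoxia, was at 336, 31.3 and 200 CPM in the ganglia, 50.6, 1.1, 4.53 and 3.62 CPM in the tumors and 3.81 to 31.4 CPM in the transgene-free ganglia (−3.66, adjusted p = 0.0262, up to 0.0708 with 1 library left out, and −5.94 without tumor 1). Of 16 MHC class I genes 1 was called, higher in ganglia, against 5 in the fit of log2(TPM + 1) and 3 of the 13 that DESeq2 tested, and 0 to 3 with 1 library left out. Of all genes, 30% were higher in ganglia in the fit of log2(TPM + 1) and 22.9% by DESeq2. The MHC counts under those rules were near these shares. Of 10 immediate early genes 0 were called by edgeR, with 1 at an unadjusted p under 0.05.

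Among genes with a mean of at least 5 TPM in the higher group, the largest differences were mostly of genes at the floor in the other group. Vwc2l, a secreted protein with von Willebrand C domains, was at 15.3, 38.1 and 22.6 CPM in the ganglia and at most 0.0282 CPM in the tumors, at least 258-fold higher in ganglia (adjusted p = 2.49e-07). Hcrtr1, the orexin receptor, was at 8.53, 18.3 and 13.8 CPM and at most 0.0388 CPM, at least 138-fold higher (adjusted p = 4.05e-07). Kctd16, an auxiliary subunit of GABA-B receptors, was at 6.24, 11.2 and 9.89 CPM and at 0 in all 4 tumors, at least 92.9-fold higher (adjusted p = 2.21e-06). In the other direction, Ces3a and Pigr, a liver carboxylesterase and the receptor that carries immunoglobulin across epithelia, were at 0 in the ganglia and at 146 and 100 CPM in tumor 3, the library high in Alb, but at no more than 1.82 and 2.1 CPM in the other tumors. Ces3a was not called without tumor 3 or without ganglion replicate 3 or 4 (adjusted p up to 0.0872), whereas Pigr was called with each library left out (adjusted p up to 0.0484). Xlr3c, of an X-linked family of near copies whose counts are uncertain, was at 1.01, 0 and 0.0517 CPM in the ganglia and 32.9, 24.2, 19.7 and 27.7 CPM in the tumors (6.57, SE 1.49, adjusted p = 0.00434). Syce1, of the synaptonemal complex of meiosis, was at 1.18 to 10.6 CPM in the tumors and at least 35.5-fold higher there (adjusted p = 0.00568), and Cdc20b, a relative of the mitotic activator Cdc20, at least 26.9-fold (adjusted p = 0.00548).

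The transgene-free ganglia placed both directions. Of the 2340 genes higher in tumors, 1983 had a mean in MYCN ganglia between those of the transgene-free ganglia and the tumors, and in 2028 the tumors lay above all 7 transgene-free ganglia. These are 84.7% and 86.7%, against 65.6% and 45% of all genes tested with a higher fitted value in tumors. Of the 3415 genes higher in MYCN ganglia, 2929 had such an intermediate mean and in 2877 the tumors lay below all transgene-free ganglia, 85.8% and 84.2% against 72.6% and 42.6% of all genes tested with a higher fitted value in ganglia. The MYCN ganglia are in both statements, and the genes were called on the tumor levels, so these numbers describe the levels and are no separate test.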

How the data were processed

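Per the labels and the study's methods, RNA was prepared from celiac ganglia, cleaned of other tissue, and from tumors with a SMARTer Stranded Total RNA kit and sequenced in pairs, although the labels name polyA RNA as the molecule. Per the labels, the authors used STAR, SAMtools and RSEM with the mm10 build; whether counting used strand is not given in the sources used here. The deposited values are RSEM expected counts per gene and TPM. Expected counts were rounded. edgeR (4.0.16, R 4.3.3) kept 16665 of 24411 genes (filterByExpr, minimum count 10), normalized all 16 libraries by TMM and fitted the 5 groups together by quasi-likelihood; the contrast was tumors minus MYCN ganglia, with Benjamini-Hochberg adjustment over all genes tested and a threshold of 0.05. A group with at most 3 counts in each library gives a fold bound from 3 counts per library. The floor covers counting error only. Positions come from RefSeq GRCm38.p6, for 16607 genes tested. In a simulation on 16665 genes, 18% of genes changed 2-fold and 62% changed 4-fold were recovered, with 3 false calls. Genes named are key list members, the 8 largest folds per direction at a mean of at least 5 TPM in the higher group, up to 2 called members per list and direction above a mean TPM of 1, and up to 6 per direction in which ganglion replicate 1 alone lay among the tumors, chosen on these values. Pes1, Nop2, Tsr1, Rrm1, Prim1, Gdnf, Ddc and Cnn1 were named outside that rule, after their values were seen. The comparison and all lists were chosen with earlier results of these data known. Alternatives were DESeq2 1.42.0, limma 3.58.1 on log2(TPM + 1), upper-quartile scaling, filters, the 7 libraries alone, terms for depth, sex or replicate number, a minimum log2 fold change of 1, removal of Rn45s and leaving out each library. Some genes that the rule names are not reported here.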

Additional observations from a re-analysis of the deposited data

Results flagged for a closer look

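In 14 of 186 sets of 4 tumor values tested, 1 tumor lay so far from the nearest of the others that its gap took up more of the whole range than Dixon's limit allows, which chance passes in about 1 in 20 sets. Tumor 1 was the distant sample in 8 of them. It was high for Mycn at 49.7 CPM, for the nicotinic subunit Chrna5 at 3.22 CPM and for the orexin receptor Hcrtr1 at 0.0388 CPM, where the other tumors were at 0 and the value is within 3 counts. It was also high for Scn3b, an auxiliary subunit of sodium channels, at 156 CPM. It was low for the corepressor Rcor2 at 85.1 CPM, for Lin28b at 25.1 CPM, for the neurofilament gene Nefh at 194 CPM and for the guidance receptor Robo1 at 24.1 CPM.

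Tumor 2 was the distant sample in 5 sets. It was high for Pecam1, of endothelium, at 46.0 CPM, for Hoxa10, a posterior homeobox gene, at 0.537 CPM and for the mean log2(CPM + 1) over the lymphocyte list at 1.40. It held the 0.0282 CPM that Igf2bp1 and Vwc2l reached, against 0 in the other tumors, which is within 3 counts. Tumor 4 was distant for Col1a1, at 394 CPM. The sets share samples and genes of 1 list move together, so the 14 are not independent, and no explanation was tested.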

How the results depend on the processing

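Of the 125 called genes followed, 92 stayed called with each library left out in turn and 66 under all alternatives that tested them. DESeq2 and the fit of the 7 libraries gave a result for 123 of the 125, and the minimum of 10 counts in every library for 92. None changed sign. With a minimum log2 fold change of 1, 1451 genes were called, 92 higher in tumors and 1359 in ganglia. The list members then called were 9 higher in tumors and 106 in ganglia, with 1 of replication, 0 of mitosis, 5 of ribosome biogenesis and 8 of synaptic release. The fit of log2(TPM + 1) called 1206 genes higher in tumors and 21 mitosis genes. DESeq2 called 28 replication and 20 mitosis genes. A term for library depth, which sets ganglion replicate 1 apart from the other libraries compared, gave 33 and 27. Mitosis calls were 3 of 36 with the 7 libraries alone and 1 with a term for sex, below the 11.4% and 12.3% of all genes then called higher in tumors. A minimum of 10 counts in every library left 11 glial genes tested and 10 called, against 22.8% of all genes higher in ganglia.

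With 1 library left out, calls ran from 3549 to 6755, those higher in tumors from 1230 to 3138 and list members higher in tumors from 72 to 177. Replication ran from 4 to 35 and mitosis from 1 to 30. Of the genes higher in tumors, the share in which ganglion replicate 1 reached the tumors ran from 3.63% to 8.08% with 1 tumor left out, that of replicate 3 from 0.983% to 2.82% and that of replicate 4 from 0.94% to 2.91%. On TPM these shares were 41%, 15% and 25.7%, and among genes called with a minimum log2 fold change of 1 they were 5.43%, 6.52% and 7.61%. Of the genes higher in ganglia, replicates 1, 3 and 4 reached the tumors in 12.2%, 1.2% and 1.02%. The shares on TPM were 6.38%, 0.439% and 0.205%, with the minimum fold change 1.99%, 0% and 0%, and with 1 tumor left out 9.17% to 10.5% for replicate 1, 0.527% to 1.2% for replicate 3 and 0.615% to 1.02% for replicate 4. The E-box was found in 17.9% of promoters higher in tumors and 6.51% higher in ganglia with that minimum, and the E2F core in 8.96% of those higher in tumors. Fewer than 80% of those genes had a promoter, so these shares do not stand for the sets.

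Fitted values changed sign for genes that were not called. In the fit of log2(TPM + 1) they were −0.01 for Gata3, −0.15 for Nefl and −0.09 for Nefh. With 1 library left out, Runx1t1 ran from −0.06 to 1.34, Nefl from −0.17 to 0.74 and Alb from −2.12, without tumor 3, to 6.56. Hist1h2ag was −0.20 with a term for sex. The cause was not tested in any of these.

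The replicate block called 5038 genes, 1961 higher in tumors (11.8%) and 3077 in ganglia (18.5%), with 5 MHC class I genes among the latter. Deviations from the group means in ganglia and tumors with the same replicate number had correlations of 0.089, 0.034 and −0.107 for numbers 1, 3 and 4. Those of the other pairs ran from −0.115 to 0.176. With so few libraries per group these values cannot decide whether the numbers pair the samples. The group of 3 ganglia includes the library with the fewest counts of the 7, 11240429, which limits the precision for low genes. Ages of the tumor mice and the cell makeup of both tissues limit every comparison.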
